A study of Mus musculus with 6 samples.

Results

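Erythroid effector genes encode the membrane proteins, receptor and enzymes that a red cell precursor puts to work once it has entered its lineage. The 9 taken here, by symbol, were Car1, Car2, Ermap, Epor, Alas2, Aqp1, Slc4a1, Rhd and Ank1. All 9 were present among the 34573 gene symbols of the count table, and 6 of them had enough reads to be among the 14004 genes tested. The RNA came from bone marrow hematopoietic stem cells (HSCs) of young adult Rpl22-/- mice, which lack the ribosomal protein Rpl22 in the germline, and of Rpl22+/+ mice. Both lines had been backcrossed to C57BL/6, and 3 libraries were made for each genotype. Because the deletion is carried in the germline, the other cells of these mice lacked Rpl22 as well. The labels define the sorted cells as lineage-negative, CD48-, CD150+, and the study's own definition of HSCs adds Sca-1+ and c-Kit+. Red cells were lysed and cells bearing Ter119, a surface antigen of erythroid precursors, were among those removed before sorting. No source used here says whether the 3 libraries of a genotype came from separate mice or pools, so the p-values measure only the spread between these samples.

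Commitment to the red cell lineage begins well downstream of the HSC. Erythropoietin binds its receptor, the product of Epor, and signals through the kinase JAK2 and the transcription factor STAT5 to keep the precursors alive. GATA1, its partner FOG1 (Zfpm1) and KLF1 then drive the genes of the mature cell, often through GATA and CACCC sequences near their promoters. The products of those genes fall into a few trades. Alas2 starts heme synthesis in the mitochondrion, carbonic anhydrases I and II (Car1 and Car2) interconvert carbon dioxide and bicarbonate, and band 3 (Slc4a1) exchanges that bicarbonate for chloride. Ankyrin (Ank1) ties band 3 to the spectrin skeleton, aquaporin (Aqp1) passes water, and Rhd and Ermap, which carry blood group antigens in humans, sit in the membrane. Several of these genes are not confined to red cells, Car2 and Aqp1 in particular. HSCs can also carry low levels of lineage genes before commitment.

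The promoters show what the members share in sequence independently of their expression. RefSeq promoters on GRCm38.p6, each running from 250 bases before to 50 bases after the annotated start, were at hand for 5 of the 9 members, namely Ermap, Epor, Alas2, Aqp1 and Rhd. The GATA motif was searched as GATAA on both strands, that is, GATAA or TTATC. It occurred before the start in 4 of the 5 members, and in 22.6% of the 32851 promoters of the same table. The 30 bases around each match are printed 5′ to 3′ on the strand of the gene, with the motif in capitals. The erythroid GATA factors recognise sites built on the letters GATA. Forms other than GATAA, such as GATAG, were not searched.
Ermap: tgaacgctcgctTTATCaggggtgggcaga
Epor: ggtggctgtagcTTATCtgtccccagcctg
Alas2: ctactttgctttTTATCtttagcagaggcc
Rhd: ccggcagcctgaGATAAgacctttggcggg
The starts are those of RefSeq, and for Epor and Aqp1 they lie outside the gene spans given further on, which come from another annotation. The Ermap window lies at chr4:119190045-119190074 on the reverse strand and its motif 62 bases before the start. The Epor window lies at chr9:21963613-21963642 on the reverse strand, 49 bases before the start. The Alas2 window is at chrX:150547319-150547348 on the forward strand, 81 bases before the start, and the Rhd window at chr4:134864482-134864511 on the forward strand, 37 bases before the start. In Ermap, Epor and Alas2 the motif read TTATC on the gene's own strand, and in Rhd it read GATAA. The Aqp1 promoter held no match in its window. The CACCC motif (CACCC or GGGTG) was found before the start in all 5, with 1 match in Ermap, 2 in Epor, 3 in Alas2, 3 in Aqp1 and 1 in Rhd, and it occurred in 52% of all promoters. A match of letters is a description and was not read as a bound site.

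Reads on genes ran from 9321123 in Rpl22+/+ replicate 3 to 13385850 in Rpl22-/- replicate 3. Levels are given as CPM, read counts brought to a common library size with edgeR's TMM factors, and values by library are always listed in the order of replicates 1, 2 and 3. The Rpl22-/- libraries differed more from each other than the Rpl22+/+ libraries did, with a chi-square per degree of freedom of 9.41 to 13.7 against 4.05 to 5.95 for pairs of replicates. Rpl22 matched the labels in every library, at 40.1 ± 4.58 CPM in Rpl22-/- and 538 ± 20.7 CPM in Rpl22+/+ HSCs (SD, n = 3 each). Of the markers of the gate, Kit was at 885 to 989 CPM and Slamf1, which encodes CD150, at 40.6 to 63.4 CPM over the 6 libraries. Few reads were counted on globins, and the 9 of that list in the count table together came to 5.29 to 9.98 CPM. Reads shared by near-identical globin copies may be missing from this sum. Of the defining markers of other lineages, Cd3e and Ms4a1 had 0 reads throughout and Cdh5 at most 1, while other genes of the same lists were measured, among them Nkg7 at 300 to 534 reads, Cd79b at 201 to 354 and Pecam1 at 659 to 1039. Some markers of other lineages were called between the genotypes. Of 17 megakaryocyte and platelet markers tested, 10 were called higher in Rpl22-/- HSCs, against 3.28% of all genes tested. The list summed to 2342 to 2619 CPM against 1707 to 2121 CPM, with Gp6 at 0 reads throughout. The count of its calls fell to 5 without Rpl22+/+ replicate 1 and to 6 without Rpl22+/+ replicate 3. Of 14 neutrophil and monocyte markers tested, 2 (Ctsg and Camp) were called higher, against 3.28% of all genes tested. The list summed to 115 to 260 CPM against 79.3 to 128 CPM. The count of calls ran from 0 to 6 with 1 library left out, at 0 without Rpl22-/- replicates 2 or 3 or Rpl22+/+ replicate 2. It was 1 with DESeq2 and 1 with limma-voom, and 0 of 5 where at least 10 counts in every library were required. Camp passed the filter on low counts only through the Rpl22-/- libraries, in which it was higher. Ctsg would not have passed on the Rpl22+/+ libraries alone, so neither call is independent of the filter. Rpl22-/- replicate 2 stood apart in this list, with Mpo at 101 CPM against 13.9 and 17.1 CPM in the other Rpl22-/- libraries and 20.5 CPM in Rpl22+/+ replicate 3. Whether such cells or transcripts had a part in the changes of the erythroid genes was not tested. In RNA from a sorted population, fewer cells carrying a transcript and less of it per cell cannot be told apart.

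The members spanned a wide range of levels in HSCs. To compare genes, CPM was divided by the exon length of each gene in kilobases to give RPKM, here as means of the 6 libraries. Car2 stood first at 374 RPKM, a higher level than 99.4% of the genes tested for which an exon length was found. Aqp1 followed at 37.3 and Epor at 10.1, above 90.9% and 58.1% of the same genes, and Car1 was at 5.66. The remaining members were lower, with Ermap at 0.405, Alas2 at 0.322, Rhd at 0.27, Ank1 at 0.232 and Slc4a1 at 0.0267. Within this order the steps from Car2 to Aqp1 (10-fold) and from Aqp1 to Epor (3.69-fold) were larger than the spread over libraries, and so were those from Car1 to Ermap (14-fold) and from Ank1 to Slc4a1 (8.69-fold). Epor and Car1 overlapped across libraries, and so did each neighbouring pair among Ermap, Alas2, Rhd and Ank1. Car2 alone supplied 86% to 88.3% of the summed CPM of the 9 genes.

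**Figure D1:**
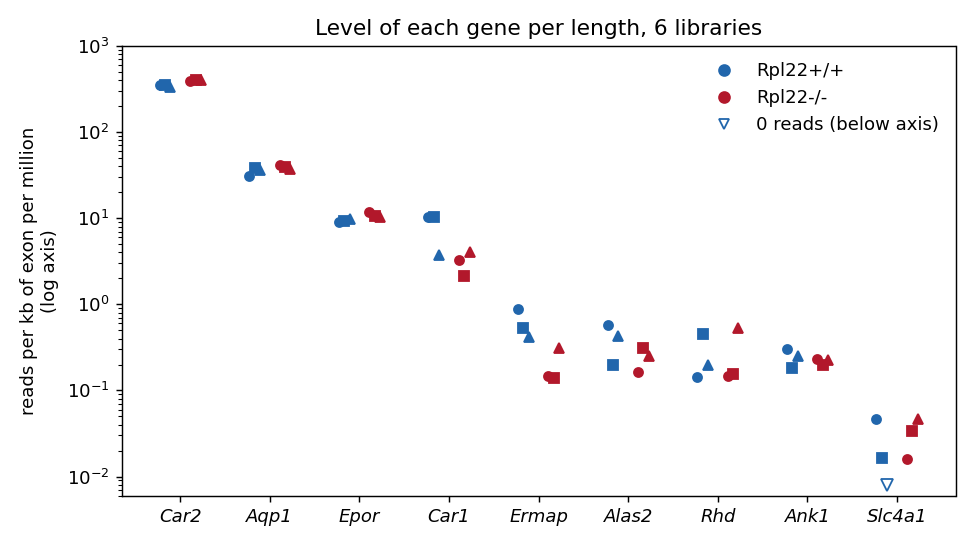
Level of each of the 9 erythroid effector genes in RPKM (CPM per kilobase of exon), on a log axis, 1 point per library, coloured by genotype. Car2, Aqp1, Epor and Car1 lie above the other 5 genes, which are all below 1, and the Rpl22+/+ library with 0 reads for Slc4a1 is drawn below the axis.

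In the comparison of Rpl22-/- with Rpl22+/+ HSCs, 2 of the 6 members tested changed, Car1 and Ermap, and both were lower without Rpl22. Car2, Epor and Aqp1 had higher means in Rpl22-/- HSCs and Ank1 a lower one, but none of these 4 passed the test. The genotypes were compared by edgeR's quasi-likelihood test, and a gene was called at an adjusted p below 0.05, the p being adjusted by the Benjamini-Hochberg method over all 14004 genes. By this rule 5.57% of all genes tested were called, 2.29% as lower and 3.28% as higher in Rpl22-/- HSCs. The higher share of the calls was 58.8%, and 43.4% when libraries were scaled by size alone, while the directions of all 6 members were the same under both scalings. An unadjusted p below 0.05 (edgeR) was reached by 22.3% of all genes tested, the share to set beside such counts further on. The genotypes did not overlap in 3 members (Car2, Ermap and Epor), against 26.9% of all genes tested. With 6 genes, these counts describe the members and do not show that they differ from other genes.

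**Figure D2:**
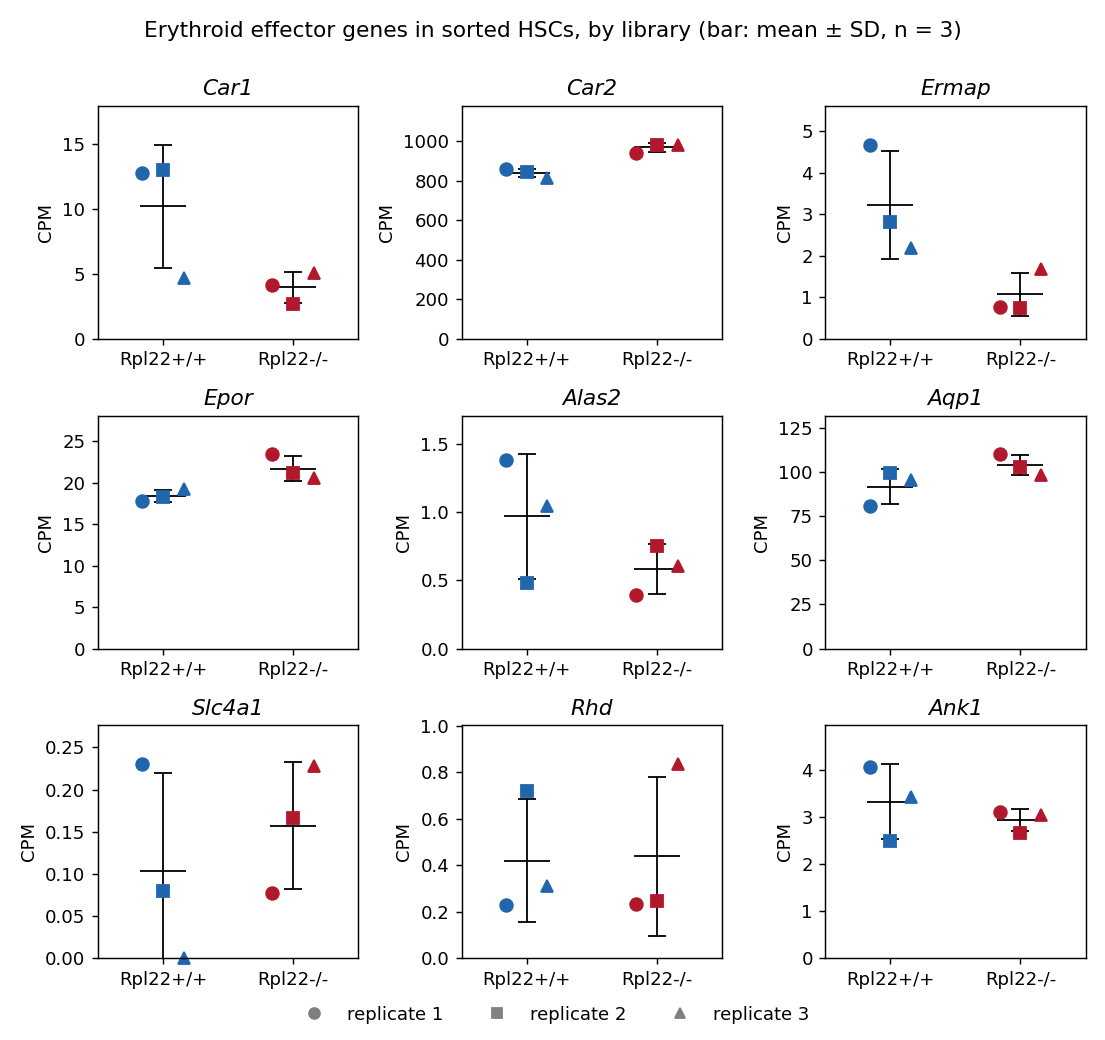
CPM of each of the 9 genes in every library, Rpl22+/+ on the left and Rpl22-/- on the right of each panel, with the mean and SD of 3 libraries and each axis starting at 0. Car1 and Ermap have lower means in Rpl22-/- HSCs, with Rpl22+/+ replicate 3 the lowest of its group in both, and Car2 and Epor are higher in all 3 Rpl22-/- libraries.

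Car1, the gene of the carbonic anhydrase that is most abundant in red cells, had the smallest adjusted p of the members. Its reads numbered 53, 32 and 67 without Rpl22 and 167, 162 and 45 with it. As CPM these were 4.13, 2.66 and 5.08 against 12.8, 13 and 4.68. Thus 2 of the Rpl22+/+ libraries were high, while the third lay between the Rpl22-/- values, so that the genotypes overlapped. The mean was 3.96 ± 1.22 CPM in Rpl22-/- and 10.2 ± 4.75 CPM in Rpl22+/+ HSCs (SD, n = 3 each). Car1 was 2.59-fold lower, a log2 fold change of -1.37 with a standard error of 0.326 (edgeR, adjusted p = 0.0246). Without Rpl22+/+ replicate 3, the lowest of its group, the log2 fold change was -1.70 (adjusted p = 0.00644, edgeR). Only 2 of the 6 fits with 1 library left out passed, as given below.

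Car2 lies in the same cluster on chromosome 3 as Car1, with Car3 between them, but did not share its direction. Car1 occupies 14766216 to 14808368 on the reverse strand (GRCm38, the assembly also named mm10) and Car2 14886273 to 14900770 on the forward strand, 77.9 kb apart. Car2 was counted at 942, 984 and 983 CPM without Rpl22, and at 859, 844 and 817 CPM with it. All Rpl22-/- libraries were therefore above all Rpl22+/+ libraries, with means of 970 ± 24.1 and 840 ± 21.3 CPM (SD, n = 3 each). The difference was 1.15-fold, or 0.21 on the log2 scale with a standard error of 0.0872, and it did not pass (edgeR, unadjusted p = 0.0306, adjusted p = 0.173). The ratio of Car1 to Car2 reads was 0.438%, 0.27% and 0.517% without Rpl22 against 1.49%, 1.54% and 0.572% with it, and the highest value without Rpl22 was close to the lowest with it. The other 2 carbonic anhydrase genes of the cluster did not pass the test either. On the log2 scale Car13 differed by -0.17 (edgeR, adjusted p = 0.482) and Car3 by 0.20 (edgeR, adjusted p = 0.622). Over the carbonic anhydrase family apart from Car1 and Car2, 8 of 14 genes were tested and 0 were called by edgeR, with 1 at an unadjusted p below 0.05, Car11, and 0 also called by DESeq2 and by limma-voom. Car11, Car12 and Car7 had the smallest p-values, with log2 fold changes of -1.02, 0.54 and 0.51 (adjusted p = 0.164, 0.277 and 0.433, edgeR). Car11 was counted at only 12, 7 and 12 reads without Rpl22 and 25, 15 and 18 with it. It would not have passed the filter on low counts on the Rpl22-/- libraries alone, so its value is not independent of the filter.

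Ermap, the erythroblast membrane-associated protein of the immunoglobulin superfamily, carries the Scianna blood group in humans. The gene spans 119175457 to 119190011 on the reverse strand of chromosome 4, the chromosome of Rpl22, 33.1 Mb away from it. The counts were 10, 9 and 22 without Rpl22, against 61, 35 and 21 with it. Scaled to CPM, the values were 0.778, 0.748 and 1.67 against 4.68, 2.81 and 2.18. The genotypes did not overlap, although the highest Rpl22-/- and the lowest Rpl22+/+ library were close. The means were 1.07 ± 0.523 and 3.22 ± 1.3 CPM (SD, n = 3 each), and the level was 3.02-fold lower, which is -1.60 on the log2 scale with a standard error of 0.415 (edgeR, adjusted p = 0.0359). Ermap passed the filter on low counts only through the Rpl22+/+ libraries, in which it was higher, so its call and its place among the 6 members tested are not independent of the filter.

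Both calls depended on single libraries. With each library left out in turn, the log2 fold change of Car1 stayed between -1.70 and -1.16, but its adjusted p (edgeR) passed in 2 of the 6 fits, without Rpl22-/- replicate 1 (0.02) and without Rpl22+/+ replicate 3 (0.00644). It rose to 0.0856 and 0.0697 without Rpl22-/- replicates 2 and 3, and to 0.119 and 0.109 without Rpl22+/+ replicates 1 and 2. The log2 fold change of Ermap stayed between -2.08 and -1.22, and its adjusted p (edgeR) passed in 0 of the 6 fits. It was 0.0502, 0.113 and 0.0561 without Rpl22-/- replicates 1, 2 and 3, and 0.209, 0.0804 and 0.056 without Rpl22+/+ replicates 1, 2 and 3. The direction of both genes was kept in all of these fits.

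**Figure D3:**
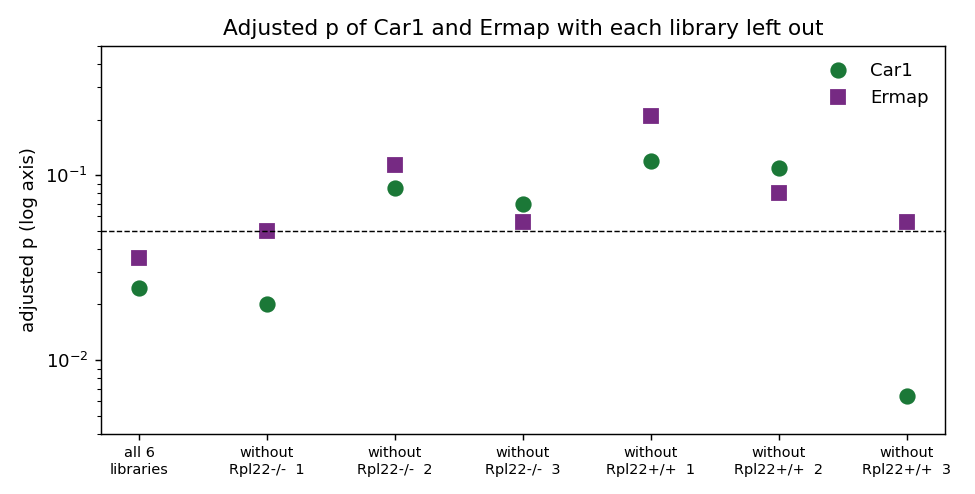
Adjusted p of Car1 and Ermap from edgeR's quasi-likelihood test with each of the 6 libraries left out in turn, on a log axis, with the threshold of 0.05 as a line. Car1 lies below the line in 2 of 6 fits and Ermap in none, the nearest being 0.0502.

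Rhd, another gene of a blood group protein, also lies on chromosome 4, from 134864536 to 134896172 on the forward strand, 17.4 Mb from Rpl22. It encodes the Rh antigen, which joins the Rh-associated glycoprotein in the membrane. It did not pass the filter on low counts, with counts of 3, 3 and 11 without Rpl22, and 3, 9 and 3 with it. The values were 0.439 ± 0.343 and 0.421 ± 0.263 CPM (SD, n = 3 each) and overlapped, and with no filter the log2 fold change was 0.06 (adjusted p = 0.988, edgeR). A difference in Rhd was not detectable at this depth.

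The transport and anchoring proteins of the membrane showed no change that passed. Aqp1 (chromosome 6, 55336432 to 55348555, forward strand) stood at 110, 103 and 98.6 CPM without Rpl22, and at 80.7, 99.5 and 95.3 CPM with it. The genotypes overlapped, by a small margin, and the means were 104 ± 5.9 and 91.8 ± 9.85 CPM (SD, n = 3 each). The difference was 0.18 on the log2 scale, with a standard error of 0.0941 (edgeR, adjusted p = 0.275), and it fell to 0.09 without Rpl22+/+ replicate 1 and to 0.12 after the trend on GC content was removed. Aqp1 is also a gene of endothelium. The endothelial marker list summed to 356 to 394 CPM in Rpl22-/- and 345 to 402 CPM in Rpl22+/+ HSCs. Of its 7 genes tested, 0 were called by edgeR, DESeq2 or limma-voom, and 1 had an unadjusted p below 0.05 in edgeR. Most of the sum was Tie1, at 221 to 254 and 220 to 264 CPM, while Cdh5 had at most 1 read in any library. The sum is therefore not a measure of endothelial cells.

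Ank1 (chromosome 8, 22974844 to 23150497, forward strand) gave counts of 40, 32 and 40 without Rpl22, and 53, 31 and 33 with it. This came to 2.94 ± 0.242 and 3.33 ± 0.796 CPM (SD, n = 3 each), with overlap. On the log2 scale Ank1 differed by -0.18 with a standard error of 0.287 (edgeR, adjusted p = 0.766), and by 0.003 without Rpl22+/+ replicate 1, the library with most Ank1 reads. The antisense gene Gm15816 shares 862 bases of exon with Ank1, and since the strand setting of the counts is not known, reads of the pair cannot be told apart there. For Gm15816 the log2 fold change was 0.04 (edgeR, adjusted p = 0.966). Slc4a1 (chromosome 11, 102348824 to 102366203, reverse strand) was the lowest of the 9, with counts of 1, 2 and 3 without Rpl22, and 3, 1 and 0 with it. The 0 in Rpl22+/+ replicate 3 allows up to 0.312 CPM, which is above every other value of the gene, so Slc4a1 was at the limit of detection in both genotypes.

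**Figure D4:**
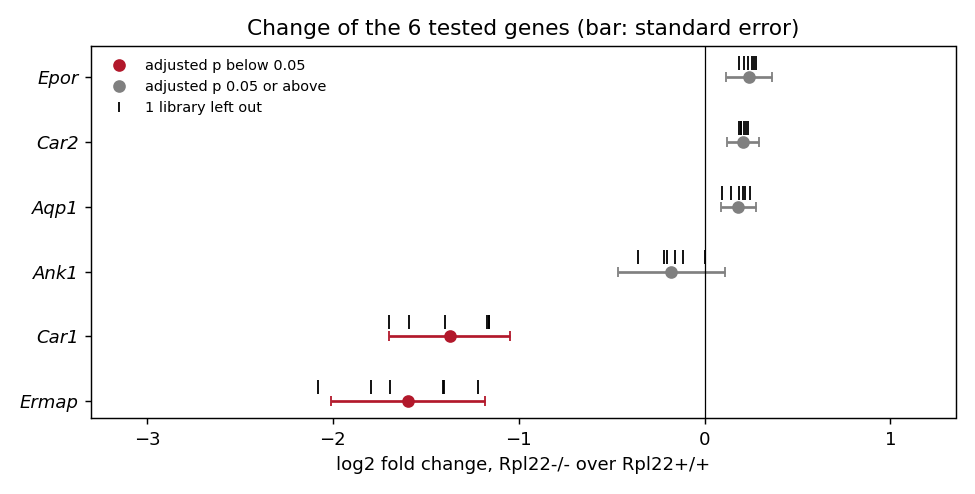
Log2 fold change of Rpl22-/- over Rpl22+/+ HSCs for the 6 members tested, with the standard error as a bar and a tick for each fit with 1 library left out. Car1 (-1.37) and Ermap (-1.60) lie apart from the other 4, whose values run from -0.18 to 0.24.

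Epor sits at the head of the pathway that sustains erythroid precursors. It spans 21958897 to 21963506 of chromosome 9, reverse strand. Its level was 23.4, 21.2 and 20.6 CPM without Rpl22, and 17.8, 18.3 and 19.2 CPM with it. Each Rpl22-/- library was above each Rpl22+/+ library, by a margin of little more than 1 CPM at the closest. The means were 21.7 ± 1.51 and 18.4 ± 0.725 CPM (SD, n = 3 each), a 1.18-fold difference, or 0.24 on the log2 scale with a standard error of 0.126, and this did not pass (edgeR, adjusted p = 0.281). Over a list of 22 genes of erythropoietin receptor signalling, all of them tested, 1 rose and 1 fell, with a median log2 fold change of 0.07. Bcl2l1, which encodes the survival protein BCL-XL, rose (35.3 ± 1.05 CPM in Rpl22+/+ and 48.7 ± 9.79 CPM in Rpl22-/- HSCs, log2 fold change 0.46, adjusted p = 0.047, edgeR). Tfrc, the transferrin receptor through which precursors take up iron, fell. Its CPM was 58.5, 48.9 and 54.3 without Rpl22 and 78.6, 86.2 and 71 with it, with no overlap. Tfrc differed by -0.55 on the log2 scale, with a standard error of 0.0991 (edgeR, adjusted p = 0.00753), and the call was kept in 5 of the 6 fits that left out a library, the exception being 0.051.

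Alas2 starts the heme pathway in erythroid cells, and its transcript was scarce. The gene lies on the X chromosome from 150547375 to 150570638 on the forward strand. The counts of 5, 9 and 8 without Rpl22, and of 18, 6 and 10 with it, were too few to pass the filter. The highest value was that of Rpl22+/+ replicate 1 and the genotypes overlapped, at 0.581 ± 0.181 and 0.967 ± 0.454 CPM (SD, n = 3 each). With no filter its log2 fold change was -0.72 (adjusted p = 0.612, edgeR). It also shares 311 bases of exon with Apex2 on the opposite strand, a gene with a log2 fold change of -0.08 (adjusted p = 0.802, edgeR). The other genes of heme synthesis were better measured. All 12 of the heme synthesis list were tested, and 2 rose while 0 fell, with a median log2 fold change of 0.04. Slc25a39, a mitochondrial carrier needed for glutathione import and heme synthesis, was one of those that rose, by 0.34 on the log2 scale (62 ± 3.97 CPM in Rpl22+/+ and 78.6 ± 5.69 CPM in Rpl22-/- HSCs, adjusted p = 0.0404, edgeR).

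The other genes of the lineage were read from lists that leave out the 9 members. Across 7 such lists (globins, red cell membrane and skeleton, heme synthesis, erythropoietin receptor signalling, erythroid transcription factors, carbonic anhydrases and terminal erythroid genes), 105 distinct genes were tested, of which 8 rose and 2 fell (4 and 3 when libraries were scaled by size alone). This is 9.52% called, against 5.57% of all genes tested, and the median log2 fold change was 0.05 against -0.01 over all genes. The shares were nearer each other when libraries were scaled by size alone (6.67% against 6.07%) and after each library's trend on GC content was removed (3.81% against 3.63%). With 1 library left out, the share of the lists moved with that of all genes. It was 16.2% against 12.1% without Rpl22-/- replicate 1, 2.86% against 2.59% without Rpl22-/- replicate 2, and 0.952% against 0.892% without Rpl22-/- replicate 3. It was 0.952% against 1.44%, 1.9% against 1.82% and 1.9% against 1.69% without Rpl22+/+ replicates 1, 2 and 3. Of the genes named from these lists, Tfrc passed in 5 of the 6 fits, Pklr in 3, Slc14a1 and Gata2 in 2 each, Spnb1, Slc25a39, Bcl2l1 and Zfpm1 in 1 each, and Ube2l6 in 0.

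Among the transcription factors, 19 were tested, 2 rose and 0 fell, and both calls were lost after the trend on GC content was removed, as they were without Rpl22-/- replicate 3 or any 1 of the Rpl22+/+ libraries. Gata2, a GATA factor of stem and progenitor cells, differed by 0.40 on the log2 scale (364 ± 7.4 CPM in Rpl22+/+ and 478 ± 35.7 CPM in Rpl22-/- HSCs, adjusted p = 0.019, edgeR). Zfpm1, the GATA1 cofactor FOG1, differed by 0.42 (266 ± 19 and 357 ± 39.7 CPM, adjusted p = 0.0213, edgeR). Both also serve the megakaryocyte lineage, of whose markers 10 of 17 rose in the same comparison, and the part of that lineage in these calls was not tested.

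The membrane and skeleton list had 21 genes tested, of which 2 rose and 0 fell. Spnb1, the erythroid beta-spectrin to which ankyrin binds, was at 6.23, 7.32 and 5.92 CPM without Rpl22, and at 2.99, 3.61 and 3.43 CPM with it. The groups did not overlap, and the difference was 0.95 on the log2 scale with a standard error of 0.229 (edgeR, adjusted p = 0.0257). With a library left out, the log2 fold change ran from 0.86 to 1.02. Slc14a1, the urea transporter that carries the Kidd blood group, differed by 0.43 on the log2 scale (186 ± 30.9 CPM in Rpl22+/+ and 251 ± 35.3 CPM in Rpl22-/- HSCs, adjusted p = 0.0459, edgeR). A further list, of relatives of Ank1, Aqp1 and Slc4a1, had 12 genes tested, of which 1 fell. This was Slc4a7, a sodium bicarbonate cotransporter of the band 3 family, with a log2 fold change of -0.46 (60 ± 3.07 CPM in Rpl22+/+ and 43.7 ± 1.1 CPM in Rpl22-/- HSCs, adjusted p = 0.0115, edgeR), a call kept in 4 of the 6 fits with a library left out.

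Terminal erythroid genes had 26 tested, of which 1 rose and 2 fell. One of those that fell was Tfrc. The other was Pklr, the pyruvate kinase of red cells and liver, with counts of 2, 4 and 0 without Rpl22, and 24, 16 and 8 with it. The fitted difference was -3.01 on the log2 scale with a standard error of 0.693 (edgeR, adjusted p = 0.0216), and it ran from -3.96 to -2.42 with 1 library left out. Pklr passed the filter on low counts only through the Rpl22+/+ libraries, in which it was higher, so its call is not independent of the filter. Ube2l6, the conjugating enzyme for ISG15, rose with a log2 fold change of 0.30 (73 ± 3.63 CPM in Rpl22+/+ and 89.9 ± 3.79 CPM in Rpl22-/- HSCs, adjusted p = 0.0496, edgeR).

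The globins were low, and most of them at or near 0 reads. Of 12 listed, 9 were in the table, 4 (Hba-x, Hbb-bh1, Hbq1a and Hbq1b) had 0 reads in every library, and 2 were tested, of which 0 were called by edgeR, 1 having an unadjusted p below 0.05, and 0 by DESeq2 and limma-voom. With no filter on low counts, edgeR called 1 of 5 globins. Hbb-b2 gave counts of 88, 87 and 74 without Rpl22, and 21, 60 and 50 with it. All Rpl22-/- values were thus higher after scaling, with a log2 fold change of 0.78 (adjusted p = 0.164, edgeR). Hbb-b1 had 17, 17 and 25 reads against 25, 10 and 9 (log2 fold change 0.32, adjusted p = 0.71, edgeR). Hba-a1 had 9, 14 and 2 reads against 8, 10 and 6, Hba-a2 had 2, 2 and 4 against 15, 4 and 0, and Hbb-y had 2 reads in Rpl22-/- replicate 3 and 0 elsewhere. The adult globin genes are near-identical pairs, so reads shared by both copies may not have been counted for either, and these levels may be too low.

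**Figure D5:**
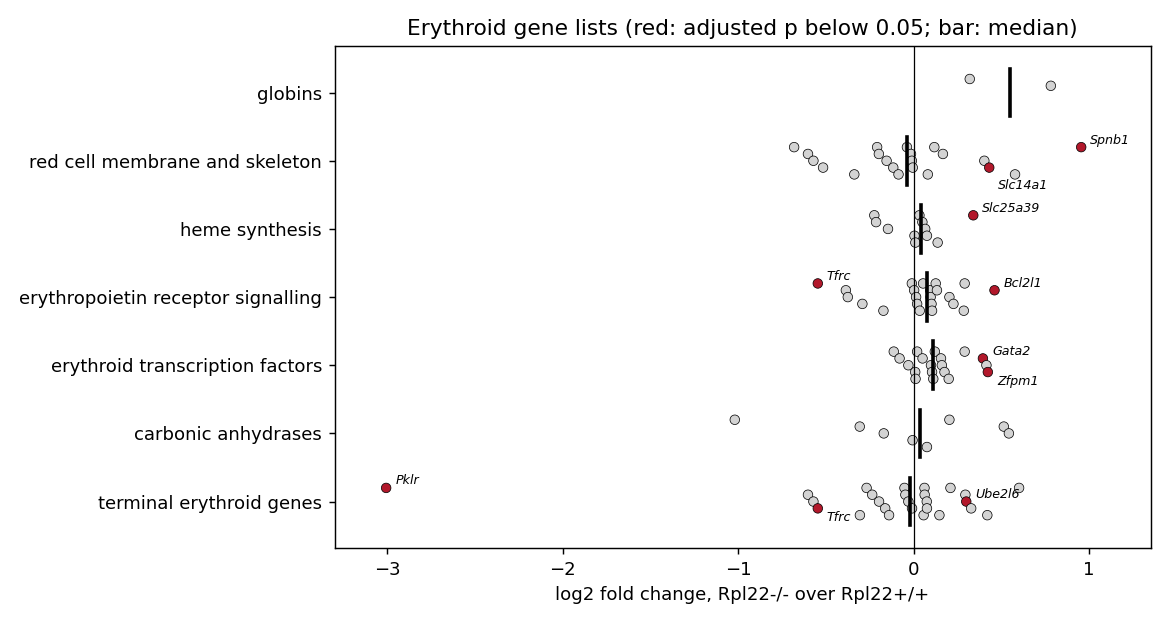
Log2 fold change of Rpl22-/- over Rpl22+/+ HSCs for the tested genes of the 7 erythroid lists, 1 point per gene, of which 1 is not drawn, with the list median as a bar and genes with an adjusted p below 0.05 in red and named. The medians lie between -0.04 and 0.11 except for the globins, with 2 genes at a median of 0.55, and Pklr at -3.01 lies far to the left.

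The members had no common profile over the libraries. When each tested member was standardized over the 6 libraries (log2 CPM, mean 0, SD 1) and the 6 profiles were averaged, the mean profile was nearly flat, between -0.22 in Rpl22+/+ replicate 3 and 0.27 in Rpl22-/- replicate 1. In Rpl22+/+ replicate 1, for example, Ermap stood at 1.4, Car1 at 1.2 and Ank1 at 1.56, while Aqp1 stood at -1.8 and Epor at -1.13. To look for similar genes, this mean profile was itself rescaled to mean 0 and SD 1, which magnifies its small differences between libraries. Among 10641 candidates, the genes closest to the rescaled profile were BC032203 (0.146), Zfp142 (0.177), Gpn3 (0.186), Six5 (0.192) and Usp19 (0.193). The values are mean absolute differences over the 6 libraries, and they do not measure closeness to the flat average.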

How the data were processed

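The authors sorted HSCs, prepared polyA+ TruSeq libraries, checked reads with FastQC, aligned them to mm10 with TopHat2 2.1.1, and deposited counts of reads per gene from HTSeq, as whole numbers without normalization. The HTSeq version, annotation and strand setting are not given in the sources used here. HTSeq's 5 lines of reads not assigned to a gene, 58.6% to 60.9% of each library, were left out of library sizes and tests. The 3 Rpl22-/- and 3 Rpl22+/+ libraries were compared from the deposited counts in edgeR 4.0.16, run in R 4.3.3, after its filterByExpr (minimum count 10) and TMM scaling, by the quasi-likelihood test, with no covariate. P-values were adjusted by Benjamini-Hochberg across 14004 genes. A mean and SD cover 3 libraries, the standard error is the log2 fold change over the root of the F statistic, and the limit for a count of 0 is 3 counts, for counting error only. Gene positions and exon lengths came from a GRCm38 annotation, which matched 29042 symbols directly and 1880 by an older symbol, with 3651 unmatched. The step was tested on simulated counts. Tables and plots were made in Python 3.11.15 with matplotlib 3.10.9, numpy 2.4.6 and pandas 2.3.3.

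The members and gene lists were chosen with earlier results of these data known. Besides the members, Rpl22 and genes overlapping a member, the genes named from each erythroid list are those with an adjusted p below 0.05. Where none or more than 3 passed, those with the 3 smallest p-values are named. The globins are named too, as are the 5 genes (average log2 CPM of at least 3) nearest the members' mean profile rescaled to SD 1. Other lists are given by counts and defining markers. Some results within this rule are not reported here. Car13 and Car3 were named for their position, and Ctsg and Camp after their values were seen. Alternatives were other scalings (relative log expression, upper quartile, library size alone), DESeq2 1.42.0, limma-voom (limma 3.58.1), no filter, at least 10 counts in every library, each library left out, a replicate block, and removal of lowess trends (span 0.3) on exon length or on GC.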

Additional observations from a re-analysis of the deposited data

How the results depend on the processing

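Car1 and Ermap kept their direction under all alternatives that gave a value. Of the erythroid effectors, 2 were called, and this count was 1 with limma-voom (Car1 adjusted p = 0.053), 1 with at least 10 counts in every library, which removes Ermap, and between 0 and 1 with 1 library left out. Apart from these fits, Car1 passed in 9 of 10 alternatives and Ermap in 9 of 9. With 1 library left out, Ank1 ran from -0.356 to 0.003 on the log2 scale, reversed without Rpl22+/+ replicate 1. The 780 genes called over all genes became 1422 with no filter, 509 after removal of the trend on GC content and 127 to 1720 with 1 library left out, lowest without Rpl22-/- replicate 3 and highest without Rpl22-/- replicate 1. Of the calls 58.8% were higher in Rpl22-/- HSCs, against 43.4% of 850 calls by library size alone, and 68.4% after removal of the trend on GC content. The 10 calls over the 7 erythroid lists became 7 (4 higher, 3 lower) by library size alone, 4 after removal of the GC trend and 17 with no filter. Of 256 recomputed list counts, 195 stayed within 1.5 times, 17 rose beyond this and 44 fell. Deviations of same-numbered libraries correlated at -0.103, 0.055 and 0.045. With 3 libraries per genotype, these values cannot settle whether replicate numbers paired the samples. A replicate block gave 904 calls against 780 without it, with Car1 at -1.29 (adjusted p = 0.0232, edgeR) and Ermap at -1.59 (adjusted p = 0.0383, edgeR). Only 1 of the 3 Rpl22-/- libraries correlated best with its own number. Alas2, Rhd and Slc4a1 had no test after the filter on low counts, and with no filter their adjusted p (edgeR) was 0.612, 0.988 and 0.895. The cause of the changes listed was not tested where the alternative's own construction does not give it.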

Other observations

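Lists of other cell types, chosen like the erythroid ones, were compared in the same way with edgeR's quasi-likelihood test. Of 20 HSC markers tested, 1 rose and 1 fell, with a median log2 fold change of -0.08. Among all genes tested, 3.28% were called higher and 2.29% lower. These 2 calls became 5 without Rpl22-/- replicate 1 and 0 without Rpl22-/- replicate 3 or any 1 of the Rpl22+/+ libraries. Gata2 rose, and Fgd5, a gene used to mark HSCs, fell by 0.41 on the log2 scale (adjusted p = 0.0308, edgeR). In 4 further lists edgeR, DESeq2 and limma-voom each called 0 genes. These were B cell markers (3 tested, 2 at an unadjusted p below 0.05), T and NK cell markers (4 tested, 1 below 0.05), mast cell and basophil markers (1 tested, 0 below 0.05) and macrophage markers (6 tested, 0 below 0.05). Without Rpl22-/- replicate 1, however, edgeR called 1 of 3 B cell markers and 1 of 4 T and NK cell markers. With no filter on low counts it called 1 of 8 B cell markers. An unadjusted p below 0.05 (edgeR) was found in 22.3% of all genes tested. The summed level of the B cell list was 51.8 to 71.3 CPM in Rpl22-/- HSCs and 39.4 to 53.8 CPM in Rpl22+/+ HSCs, that of the T and NK cell list 51 to 61 against 44.7 to 48.8 CPM. The mast cell list summed to 6.46 to 13.5 against 6.91 to 8.74 CPM and the macrophage list to 28.1 to 47.2 against 30.9 to 37.6 CPM.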
